A study of Mus musculus with 12 samples.

Results

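10 genes of the thermogenic program of fat were followed across RNA-Seq libraries of epididymal white adipose tissue (eWAT) from diet-induced obese mice. The genes were chosen by symbol: Ucp1, Ucp2, Ckb, Ppargc1a, Prdm16, Cidea, Elovl3, Dio2, Cox7a1 and Cox8b. All 10 were found among the 49315 genes of the count table, and all 10 passed the filter on low counts that left 18702 genes for testing. The study asked whether the drug methotrexate (MTX) acts on adipose tissue inflammation and insulin resistance through the microRNA locus Mir181a2b2. The 12 libraries fell into 4 groups of 3: miR-181a2b2flox/flox (flox) mice with vehicle (replicates 1, 3 and 4), miR-181a2b2-/- (KO) mice with vehicle (replicates 1, 2 and 3), flox mice with MTX (replicates 1, 2 and 4) and KO mice with MTX (replicates 2, 3 and 4). All mice were kept for 12 weeks on a diet with 60% fat, and MTX was given once a week by intraperitoneal injection at 1 mg/kg. According to the methods the mice were male, age-matched, cage-matched littermates, and the KO is systemic, so every cell type of the fat pad lacked the locus. The flox mice carried the floxed allele and no Cre is named for them. The ages of the mice are not given in the sources used here. The labels do not say that each library came from a separate mouse, so the p-values measure the spread between these samples.

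Thermogenic adipocytes are the brown cells of brown fat and the beige cells that can arise in white fat. Noradrenaline acts on beta-adrenergic receptors and raises cAMP, which switches on coactivators such as PGC-1alpha and, through them, UCP1, a carrier that lets protons cross the inner mitochondrial membrane and so turns fuel into heat. Creatine cycling through creatine kinase B is described as a further route to heat, and epididymal fat is known as a depot that browns poorly.

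Depth ranged from 19495310 to 23976469 counts per library, so a count of 0 allowed up to 3 counts, and this limit covers counting error only. Levels of genes are given as CPM (read counts relative to the size of the library, corrected with TMM factors), and marker sums as CPM without these factors. All 18 adipocyte markers (most abundant: Cidec, a lipid droplet protein) were above 3 counts in every library, and their sum ranged from 17365 to 36721 CPM in flox vehicle, 12291 to 22917 in KO vehicle, 20777 to 34765 in flox MTX and 7829 to 18953 in KO MTX. The 3 flox vehicle libraries stood apart: 18 epididymis markers, led by the sperm-coating protein gene Crisp1, summed to 1783 to 14808 CPM there, against 6.42 to 18.2 in KO vehicle, 5.87 to 485 in flox MTX and 1.90 to 15.03 in KO MTX, and 13 testis germ cell markers, led by Prm2, summed to 226 to 529 CPM there and 13.3 to 43.3 elsewhere. The sum of 20 macrophage markers, led by the lysozyme gene Lyz2, was 1023 to 1835 CPM in flox vehicle, 7961 to 15373 in KO vehicle, 1191 to 9159 in flox MTX and 10943 to 19122 in KO MTX, and all 20 were above 3 counts in every library. In bulk tissue, fewer cells of a type and less RNA per cell cannot be told apart. The deleted genes Mir181a-2 and Mir181b-2 had no reads in 11 of the 12 libraries, and flox MTX replicate 4 held 2 reads, both of Mir181a-2. Both lie at or under the limit of 3 counts in flox and KO alike, so these libraries do not check the genotype labels.

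The locus encodes miR-181a and miR-181b, at chr2:38852735-38852810 (Mir181a-2 hairpin) and chr2:38853830-38853918 (Mir181b-2 hairpin) of GRCm38. Their mature sequences, from RefSeq, are shown because the KO deletes 1 of the genes that encode each, and because they share 1 seed (bases 2 to 8, in capitals). In RefSeq both are also encoded at a second locus (Mir181a-1 and Mir181b-1), and miR-181c and miR-181d have the same seed, so the KO does not remove the seed family.
miR-181a-5p: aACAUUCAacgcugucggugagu
miR-181b-5p: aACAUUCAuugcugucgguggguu
The complement of the seed, TGAATGT, was searched in the longest 3′ UTR of each gene in GENCODE M21. It occurred in 2815 of the 15438 tested genes with a 3′ UTR, or 18.2%. Of the 10 genes, Dio2 held it, at 2 places in a 3′ UTR of 4860 bases, and the other 9 did not. The first of these, at base 2887 of the 3′ UTR, is shown with its surroundings, the match in capitals.
Dio2 seed match: caatgacttcctTGAATGTagagcctg
Dio2 itself was not called in any comparison (values below). A match is a description of the letters and not a measured site.

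Promoters were taken from RefSeq (GRCm38.p6) as the 250 bases before to 50 bases after the start, written along the gene's strand. They are shown for the 3 genes called between KO and flox, for Ucp1, and for Dio2, whose promoter held a complete cAMP response element. Capitals mark the TATA box core TATAAA, the CCAAT box CCAAT and the core TGACG of the cAMP response element (CRE core), each searched on both strands.
Ucp2 (chr7:100493108-100493407, plus strand): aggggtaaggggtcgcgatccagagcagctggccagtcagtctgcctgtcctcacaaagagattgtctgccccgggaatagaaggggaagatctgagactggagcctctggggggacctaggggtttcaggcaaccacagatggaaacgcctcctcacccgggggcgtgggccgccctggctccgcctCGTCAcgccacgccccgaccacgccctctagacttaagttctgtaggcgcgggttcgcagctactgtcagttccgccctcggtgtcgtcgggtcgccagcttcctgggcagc
Ckb (chr12:111672289-111672588, minus strand): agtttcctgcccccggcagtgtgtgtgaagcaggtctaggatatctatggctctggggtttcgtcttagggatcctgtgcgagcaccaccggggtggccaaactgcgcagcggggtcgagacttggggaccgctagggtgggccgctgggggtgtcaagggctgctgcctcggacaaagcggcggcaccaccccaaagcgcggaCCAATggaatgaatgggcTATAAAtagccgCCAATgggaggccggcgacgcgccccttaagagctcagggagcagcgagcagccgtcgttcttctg
Ppargc1a (chr5:51567676-51567975, minus strand): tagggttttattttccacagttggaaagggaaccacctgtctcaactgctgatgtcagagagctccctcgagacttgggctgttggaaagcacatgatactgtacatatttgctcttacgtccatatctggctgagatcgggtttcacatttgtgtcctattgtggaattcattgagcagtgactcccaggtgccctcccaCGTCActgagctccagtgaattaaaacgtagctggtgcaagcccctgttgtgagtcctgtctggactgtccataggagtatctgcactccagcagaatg
Ucp1 (chr8:83290098-83290397, plus strand): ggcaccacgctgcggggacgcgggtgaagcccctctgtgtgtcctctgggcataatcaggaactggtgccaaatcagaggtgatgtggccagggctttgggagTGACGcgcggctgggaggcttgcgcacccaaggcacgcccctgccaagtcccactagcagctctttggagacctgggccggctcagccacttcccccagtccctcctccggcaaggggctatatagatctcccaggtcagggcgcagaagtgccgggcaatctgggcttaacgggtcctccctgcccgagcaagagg
Dio2 (chr12:90738989-90739288, minus strand): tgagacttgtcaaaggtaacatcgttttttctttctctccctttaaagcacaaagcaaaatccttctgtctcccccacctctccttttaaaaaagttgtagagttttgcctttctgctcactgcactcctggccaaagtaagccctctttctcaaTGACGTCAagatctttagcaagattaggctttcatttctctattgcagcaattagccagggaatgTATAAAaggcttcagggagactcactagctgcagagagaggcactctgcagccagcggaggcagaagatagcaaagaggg
Among 32851 promoters of the same length, 13.6% held TATAAA, 37.4% CCAAT, 20.8% the CRE core and 1.79% the complete element TGACGTCA. The Ckb promoter held TATAAA at 1 place and CCAAT at 2 places. The Ucp2, Ppargc1a and Ucp1 promoters each held 1 CRE core and neither of the other motifs. In Dio2 the 2 CRE core matches were both strands of 1 complete element, beside 1 TATAAA.

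Compared per kilobase of exon sequence, the genes spanned a wide range of levels. In flox vehicle the highest group means were those of Cox8b with 39.3 ± 21.0 CPM per kb (SD, n = 3), Ckb with 33.4 ± 5.52 and Ucp2 with 32.2 ± 12.1, and the ranges of their libraries overlapped from each to the next. Cox7a1 followed at 9.71 ± 4.44, below every Ucp2 value. The remaining 6 genes lay lower, from Cidea at 4.75 ± 3.91 to Dio2 at 0.27 ± 0.22, with overlapping ranges between neighbours. In KO vehicle Ucp2 led with 182 ± 45.7 CPM per kb and Ckb followed with 106 ± 53.1, with overlapping ranges. Both were above every Cox8b value of that group (mean 40.1 ± 11.7). In KO MTX the order was Ucp2 (223 ± 14.6), Ckb (105 ± 33.0), Cox8b (30.2 ± 11.1) and Cox7a1 (9.85 ± 2.60), each apart from the next. Ppargc1a had the lowest mean at 0.26 ± 0.04, but its range lay within that of Ucp1, the next gene. In flox MTX Ucp2 (104 ± 68.1), Cox8b (57.2 ± 37.5) and Ckb (38.1 ± 14.3) overlapped again. Ucp2 had the highest mean per kb in every group but flox vehicle. Ucp1 had a mean of 2.09 ± 3.44 CPM per kb or less in all 4 groups. The length used was all annotated exonic bases of a gene, 6989 for Ucp2, 2895 for Ckb and 360 for Cox8b. This may differ from the length of the mRNA present, which was not measured. The order of genes per kb depends on this choice of length. Before division by length, the flox vehicle means were 225 CPM for Ucp2, 96.7 for Ckb and 14.2 for Cox8b.

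**Figure D1:**
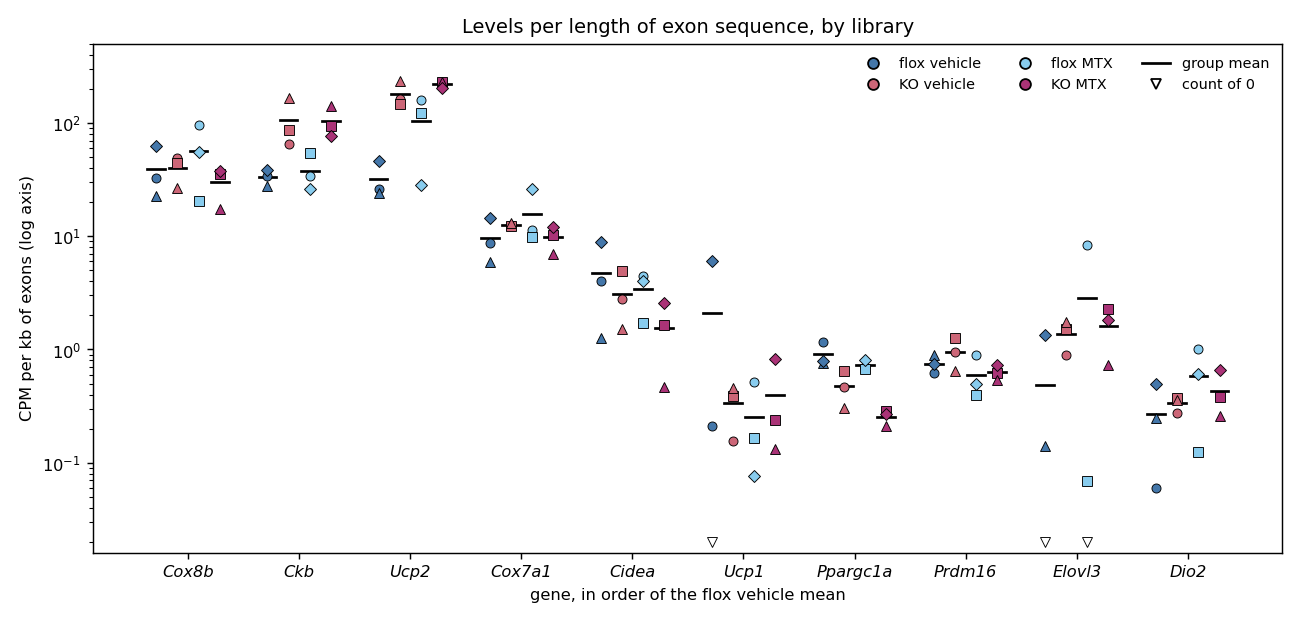
Level of each gene in CPM per kb of exon sequence on a log axis, with 1 symbol per library (symbol shape: replicate number), colour by group and a line at the group mean. Open triangles at the lower edge stand for a count of 0. Ucp2 and Ckb sit at the top in both KO groups, and Ucp1 is high in 1 flox vehicle library alone.

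Of the 10 genes, 3 differed between KO and flox mice under vehicle. Ucp2, an uncoupling protein homolog found in many cell types and abundant in immune cells, was 5.65-fold higher in KO. Ckb, the cytosolic creatine kinase, was 3.18-fold higher, and Ppargc1a, the coactivator PGC-1alpha that drives mitochondrial biogenesis, was 1.92-fold lower. The other 7 genes, among them Ucp1, Cidea and Prdm16, were not called. Calls needed a change of at least 1.5-fold together with an adjusted p under 0.1 (edgeR's quasi-likelihood test with Benjamini-Hochberg adjustment over all 18702 genes). By that rule 31.7% of all genes were called in this comparison. The values of 3 of the 10 genes did not overlap between KO and flox, as was so for 48.1% of all genes, so neither count stands above the background.

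Ucp2 (chr7:100493337-100502020, plus strand, 305 of 6989 exonic bases shared with Dnajb13 on the other strand) measured 182 CPM, 170 and 323 in flox vehicle replicates 1, 3 and 4. In KO vehicle replicates 1, 2 and 3 it measured 1141, 1038 and 1635 CPM. The groups did not overlap. The log2 fold change was 2.497 (SE 0.52, adjusted p = 0.00577). The call held in each alternative run, from 2.28 to 2.86 with single libraries left out.

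Under MTX, Ucp2 measured 1121, 862 and 198 CPM in flox replicates 1, 2 and 4. The KO MTX values, in replicates 2, 3 and 4, were 1627, 1600 and 1438 CPM. These groups did not overlap either, but the difference was not called, with a log2 fold change of 1.10 (SE 0.50, adjusted p = 0.203). Flox MTX replicate 4 sat within the range of the flox vehicle libraries, whereas replicates 1 and 2 were far above it. MTX against vehicle in flox mice was called for Ucp2 as the only gene of the 10 (3.23-fold, log2 fold change 1.69, SE 0.51, adjusted p = 0.0392), although the groups overlapped. The adjusted p of this call rose past the limit when 1 library was left out, to 0.115 for replicate 1 and 0.150 for replicate 3 of flox vehicle, and to 0.125 for replicate 1 of flox MTX. It also did so with scaling to adipocyte RNA (adjusted p = 0.135), with the replicate block (0.163) and in a fit on the libraries of the comparison alone (0.163). In KO mice MTX against vehicle gave a log2 fold change of 0.29 (SE 0.49, adjusted p = 0.921).

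Markers of several cell types differed between the same groups. All 20 macrophage markers were called higher in KO against flox under vehicle, and 19 of 20 in MTX against vehicle in flox mice. Of all genes, 31.7% were called in the former comparison and 24.2% in the latter, in either direction. In flox MTX, replicates 1, 2 and 4 had macrophage sums of 4371, 9159 and 1191 CPM. Replicate 4 was lowest in both the sum and Ucp2, but replicate 2 had the highest sum and replicate 1 the highest Ucp2. In flox vehicle the sums were 1375, 1023 and 1835 CPM in replicates 1, 3 and 4, the same order as Ucp2. In KO vehicle replicate 3 was highest in both, while replicate 1 had the lowest sum and replicate 2 the lowest Ucp2. In KO MTX replicate 4 was lowest in both, while replicate 3 had the highest sum and replicate 2 the highest Ucp2. The stromal progenitor list, led by Col3a1, rose as well, with 8 of 9 genes called higher and 1 lower in KO under vehicle, and sums of 1562 to 2844 CPM in flox vehicle against 5746 to 9097 in KO vehicle. Of the endothelium list, led by Pecam1, 9 of 10 genes were called higher in that comparison, with sums of 428 to 662 CPM in flox vehicle and 922 to 1445 in KO vehicle. With MTX in flox mice 5 of 9 stromal markers and 6 of 8 mesothelium markers were called higher, and none of the 10 endothelium markers was called. Their part in the result was not tested. The 3 genes whose log2-CPM was most like that of Ucp2 over the 12 libraries were Naip2, Ccl9 and Clec10a (Pearson r = 0.994, 0.992 and 0.990 among 15476 genes). Against the log2 marker sums, Ucp2 had r = 0.965 for macrophage, 0.968 for stromal progenitor, 0.624 for endothelium and 0.162 for mesothelium. These r values describe libraries that share group differences and carry no test.

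Ckb (chr12:111669361-111672338, minus strand) measured 98.7, 79.8 and 112 CPM in flox vehicle replicates 1, 3 and 4. In KO vehicle replicates 1, 2 and 3 it measured 190, 252 and 482 CPM, all above the flox values. The log2 fold change was 1.67 (SE 0.38, adjusted p = 0.00793), and it stayed called in each alternative run. Under MTX the values were 99.3, 156 and 75.7 CPM in flox replicates 1, 2 and 4, and 275, 409 and 224 CPM in KO replicates 2, 3 and 4. These did not overlap either, but with a log2 fold change of 1.46 (SE 0.37) the adjusted p was 0.104, just past the limit. MTX against vehicle was not called for Ckb in flox mice (log2 fold change 0.19, SE 0.37, adjusted p = 0.745) or in KO mice (-0.02, SE 0.37, adjusted p = 0.995). Ckb was most like Ptprs, Ankrd13b and Cd9 over the 12 libraries (r = 0.976, 0.973 and 0.972). In both KO groups replicate 3 had the highest Ckb and the highest macrophage sum, and in flox MTX it was replicate 2. Against the log2 marker sums, Ckb had r = 0.917 for macrophage, 0.914 for stromal progenitor, 0.802 for Schwann cell and nerve, and -0.816 for adipocyte. These r values carry no test. What part the RNA of these cell types had in Ckb was not tested.

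Ppargc1a (chr5:51454250-51567726, minus strand) measured 7.68, 5.03 and 5.22 CPM in flox vehicle replicates 1, 3 and 4, and 3.07, 4.23 and 2.02 CPM in KO vehicle replicates 1, 2 and 3. Every KO value was below every flox value. The log2 fold change was -0.94 (SE 0.30, adjusted p = 0.0388). With 1 library left out the adjusted p passed the limit in 3 cases, at 0.143 for replicate 1 of flox vehicle, 0.106 for replicate 1 of KO vehicle and 0.139 for its replicate 3. Under MTX the values were 4.63, 4.41 and 5.38 CPM in flox replicates 1, 2 and 4, and 1.87, 1.39 and 1.79 CPM in KO replicates 2, 3 and 4. The 2 groups were again apart, by a log2 fold change of -1.51 (SE 0.31, adjusted p = 0.104). Within KO mice MTX values lay below all vehicle values (log2 fold change -0.88, SE 0.31, unadjusted p = 0.0158), which did not pass the adjustment (adjusted p = 0.469 with edgeR). In flox mice the log2 fold change with MTX was -0.32 (SE 0.30, adjusted p = 0.484), and the interaction was not called (-0.57, SE 0.43, adjusted p = 0.548).

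Of the 18 adipocyte markers 5 were called lower and 0 higher in KO under vehicle, where 31.7% of all genes were called. Their sums in KO replicates 1, 2 and 3 were 22917, 17664 and 12291 CPM, against 36721, 17365 and 30938 in flox replicates 1, 3 and 4, so the groups overlapped. In flox the sum and Ppargc1a ranked the replicates alike. In KO replicate 3 was lowest in both, but replicate 1 had the highest sum and replicate 2 the highest Ppargc1a. Against the log2 marker sums over the 12 libraries, Ppargc1a had r = 0.817 for adipocyte, -0.837 for macrophage and -0.782 for stromal progenitor, without a test. The part of RNA of these cell types in the Ppargc1a change was not tested. When libraries were scaled to the core adipocyte genes, the median of all genes moved from -0.06 to 0.34. Ppargc1a then had a log2 fold change of -0.54 (adjusted p = 0.641) and was no longer called. Relative to the median of all genes it was -0.88 under both scalings. A change of scaling moves all genes by a similar amount, so this distance is no separate check. Relative to that median Ucp2 was 2.70 and Ckb 1.93 higher, and both remained called. The genes most like Ppargc1a were Gng7, Nipsnap1 and Pigyl (r = 0.971, 0.967 and 0.957).

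**Figure D2:**
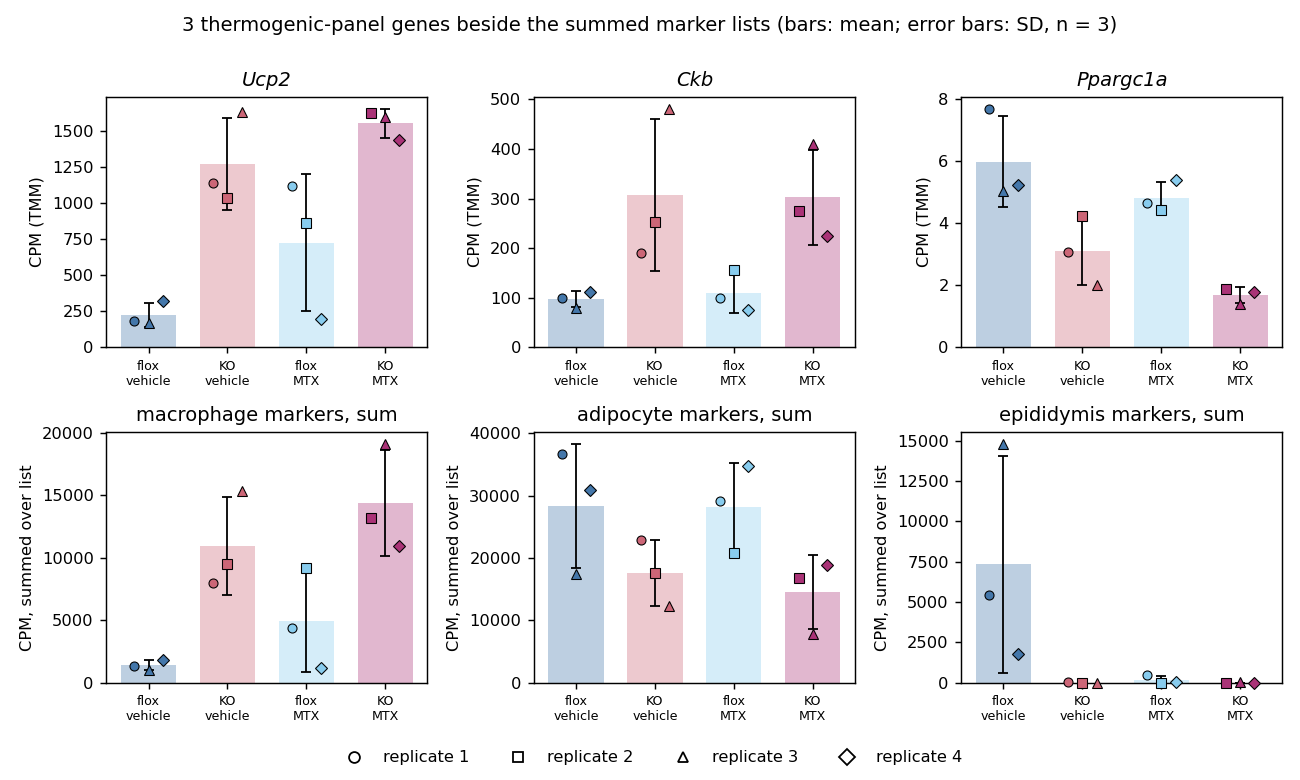
Upper row: CPM of Ucp2, Ckb and Ppargc1a in each library. Lower row: CPM summed over the macrophage, adipocyte and epididymis markers. Bars are means of 3 libraries, error bars SD (cut at 0) and symbol shapes replicate numbers. Ucp2, Ckb and the macrophage sum are all higher in KO vehicle than in flox vehicle. Flox MTX replicates 1, 2 and 4 have macrophage sums of 4371, 9159 and 1191 CPM beside Ckb values of 99.3, 156 and 75.7 CPM. The part of macrophage RNA in these genes was not tested. Epididymis marker sums are highest in flox vehicle.

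Ucp1 (chr8:83290352-83298452, plus strand), the uncoupling protein that produces heat, was at or below 1.35 CPM in 11 of 12 libraries and measured 9.93 CPM in flox vehicle replicate 4. The flox vehicle counts in replicates 1, 3 and 4 were 8, 0 and 215. In KO vehicle they were 5, 15 and 16, in flox MTX 18, 6 and 2, and in KO MTX 9, 5 and 31. The fitted log2 fold change of KO against flox under vehicle was -2.62 (SE 1.45, adjusted p = 0.197), and without flox vehicle replicate 4 it was 1.67, so 1 library set its direction. Without flox vehicle replicate 3, the library with no count, the gene was called lower in KO (-3.21, adjusted p = 0.0773). In MTX against vehicle in flox mice the log2 fold change was -2.99 (SE 1.49, adjusted p = 0.182), and 1.31 without flox vehicle replicate 4. That library set the direction here too. The most like genes were Tyro3, Slc20a1 and Adamts6 (r = 0.827, 0.818 and 0.745).

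Cidea, a lipid droplet protein of brown and beige cells, was 1.42 to 10.02 CPM in flox vehicle, 1.69 to 5.55 in KO vehicle, 1.91 to 4.96 in flox MTX and 0.52 to 2.88 in KO MTX. All groups overlapped, and the log2 fold changes of KO against flox were -0.61 (SE 0.74, adjusted p = 0.565) under vehicle and -1.12 (SE 0.76, adjusted p = 0.380) under MTX. Prdm16 (chr4:154316125-154636873, minus strand), a transcriptional coregulator of brown fat identity, lay between 3.73 and 11.8 CPM in all 12 libraries, with a log2 fold change of 0.35 (SE 0.33, adjusted p = 0.457) under vehicle and 0.06 (SE 0.34, adjusted p = 0.927) under MTX. Of its exonic bases 109 lie against B230104I21Rik on the other strand. Cidea was most like Ebf3, Peg3 and Cntln (r = 0.942, 0.924 and 0.904), and Prdm16 was most like Podxl, Myl9 and Nos2 (r = 0.951, 0.930 and 0.918).

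Elovl3 (chr19:46131897-46135694, plus strand), a fatty acid elongase induced by cold in brown fat, varied most between libraries of 1 group. In flox vehicle replicates 1, 3 and 4 its counts were 0, 7 and 57, and in flox MTX replicates 1, 2 and 4 they were 352, 3 and 0. The KO libraries were more even, with 35, 71 and 73 counts under vehicle and 104, 33 and 82 under MTX. In MTX against vehicle in flox mice the log2 fold change was 2.54 (SE 1.67, adjusted p = 0.308), and without flox MTX replicate 1 it was -3.55. Dio2 (chr12:90724552-90738438, minus strand), the deiodinase that makes active thyroid hormone inside the cell, measured 0.35 to 2.86 CPM in flox vehicle, 1.61 to 2.16 in KO vehicle, 0.73 to 5.90 in flox MTX and 1.52 to 3.80 in KO MTX. It was not called in any of the 5 comparisons, with a log2 fold change of 0.33 (SE 0.75, adjusted p = 0.778) for KO against flox under vehicle. Elovl3 was most like Fam122b, Hpx and Sh3bgrl2 (r = 0.963, 0.951 and 0.935), and Dio2 was most like Gm9696, Col4a2 and Tmem30a (r = 0.962, 0.953 and 0.946).

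The pair of respiratory chain subunits enriched in brown fat and muscle was measured well above the floor. Cox8b (chr7:140898945-140900446, minus strand) ran from 6.28 to 34.4 CPM and its groups overlapped in all 4 comparisons, with a log2 fold change of 0.03 (SE 0.53, adjusted p = 0.975) for KO against flox under vehicle. Under MTX it was -0.92 (SE 0.54, adjusted p = 0.309). Cox7a1 (chr7:30184144-30186078, plus strand) was 6.65 to 7.03 CPM in KO vehicle and 3.77 to 6.51 CPM in KO MTX. Those 2 groups did not overlap, but the log2 fold change of -0.37 (SE 0.41, adjusted p = 0.867) did not pass the test. Skeletal muscle markers, of which Myl1 was most abundant, summed to 49.4 to 112 CPM over all libraries. In MTX against vehicle in flox mice Cox7a1 was called higher only without flox vehicle replicate 4 (1.13, adjusted p = 0.0783). Cox8b was most like Acsl1, Wwtr1 and Krt79 (r = 0.972, 0.966 and 0.965), and Cox7a1 was most like Ndufaf2, Sptan1 and Gypc (r = 0.925, 0.922 and 0.910).

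With 3 libraries per group, 1 of them is always highest for several of the 10 genes. The counts below are a description, as the share over all genes was not counted. Flox vehicle replicate 4 had the highest value of its group for 8 of the 10 genes, all but Ppargc1a and Prdm16, and flox MTX replicate 1 did so for 7. In KO MTX replicate 4 was highest for 6.

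**Figure D3:**
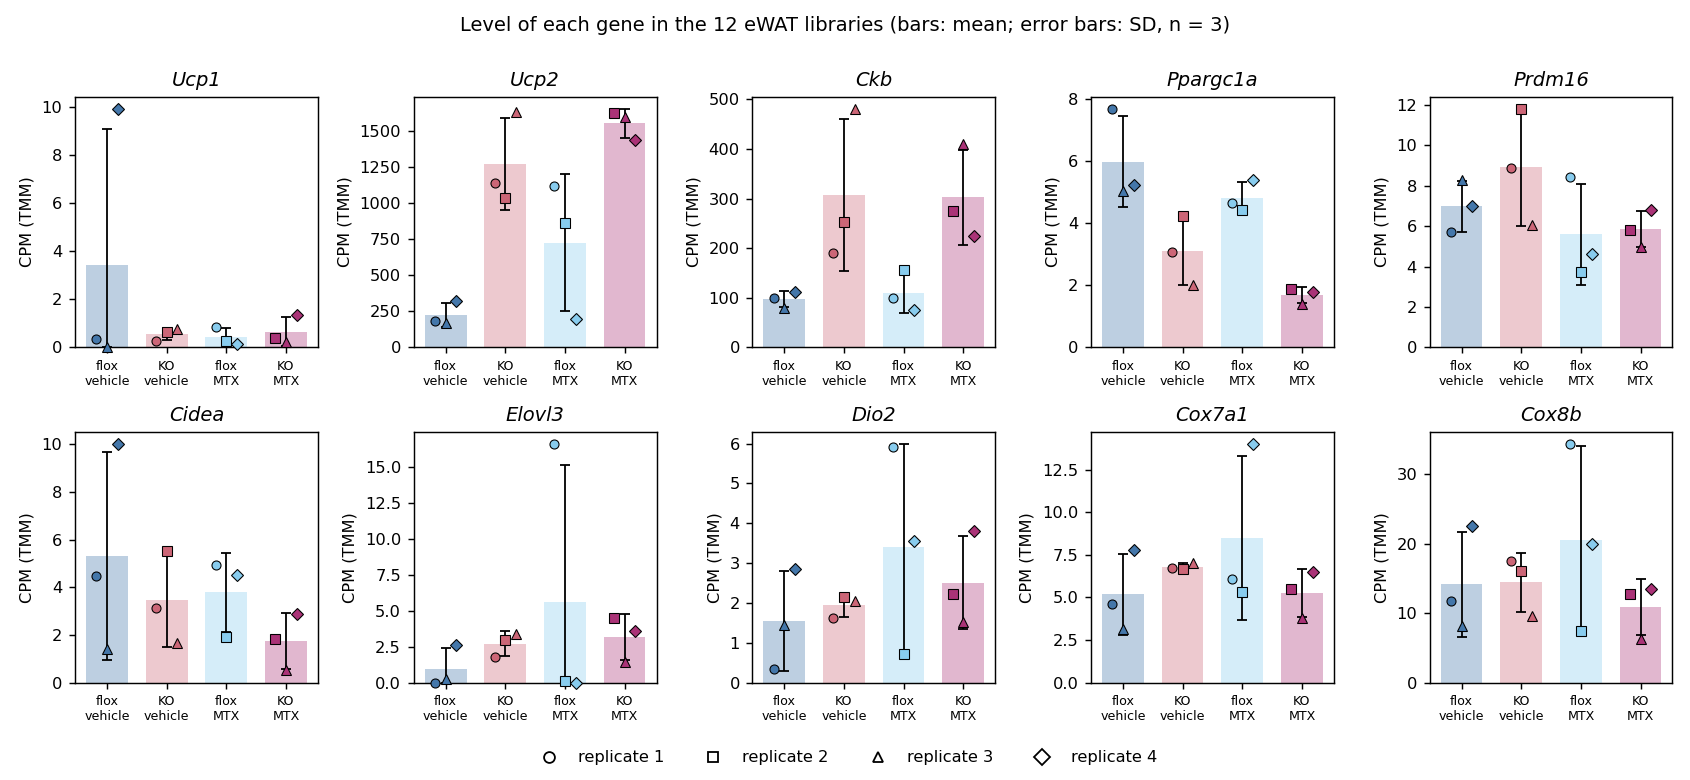
CPM of each gene in the 12 libraries, 3 per group. Bars are group means, error bars SD (cut at 0) and symbol shapes replicate numbers. Flox vehicle replicate 4 carries the Ucp1 mean of its group, and flox MTX replicate 1 that of Elovl3.

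Under MTX no gene of the 10 was called between KO and flox, and neither was any other gene by edgeR (0% of all genes). At an unadjusted p below 0.05, 3 of the 10 passed (Ppargc1a, Ckb and Ucp2), against 24.5% of all genes, and the same 3 did not overlap between groups, against 26.8%. DESeq2 called 2734 genes in this comparison, Ppargc1a (adjusted p = 0.00108) and Ckb (adjusted p = 0.00645) among them. In a simulation of KO against flox under vehicle DESeq2 recovered more of 200 changed genes than edgeR (180 against 154) and made more false calls (84 against 19). That simulation was of another comparison and used spreads estimated by edgeR, so it does not weigh these 2 calls. Without flox MTX replicate 2 edgeR called Ppargc1a (adjusted p = 0.0288), Ckb (0.0292) and Cox8b (-1.32, adjusted p = 0.0794). In MTX against vehicle in flox mice 1 of 10 was called, against 24.2% of all genes. In KO mice MTX against vehicle gave no call among the 10 or among all genes (0%) with edgeR, while DESeq2 called 275 genes and none of the 10. At an unadjusted p below 0.05, 1 of the 10 passed there (7.97% of all genes), and 2 did not overlap between groups (20.7%). The interaction of genotype and MTX, which tests whether MTX changed a gene by a different amount in KO than in flox mice, was called for none of the 10 by edgeR or DESeq2. By edgeR 0.989% of all genes were called, and at an unadjusted p below 0.05 none of the 10 passed, against 15% of all genes. The closest were Ucp2 (-1.40, SE 0.70, unadjusted p = 0.0699) and Cox7a1 (-1.07, SE 0.58, unadjusted p = 0.0936).

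**Figure D4:**
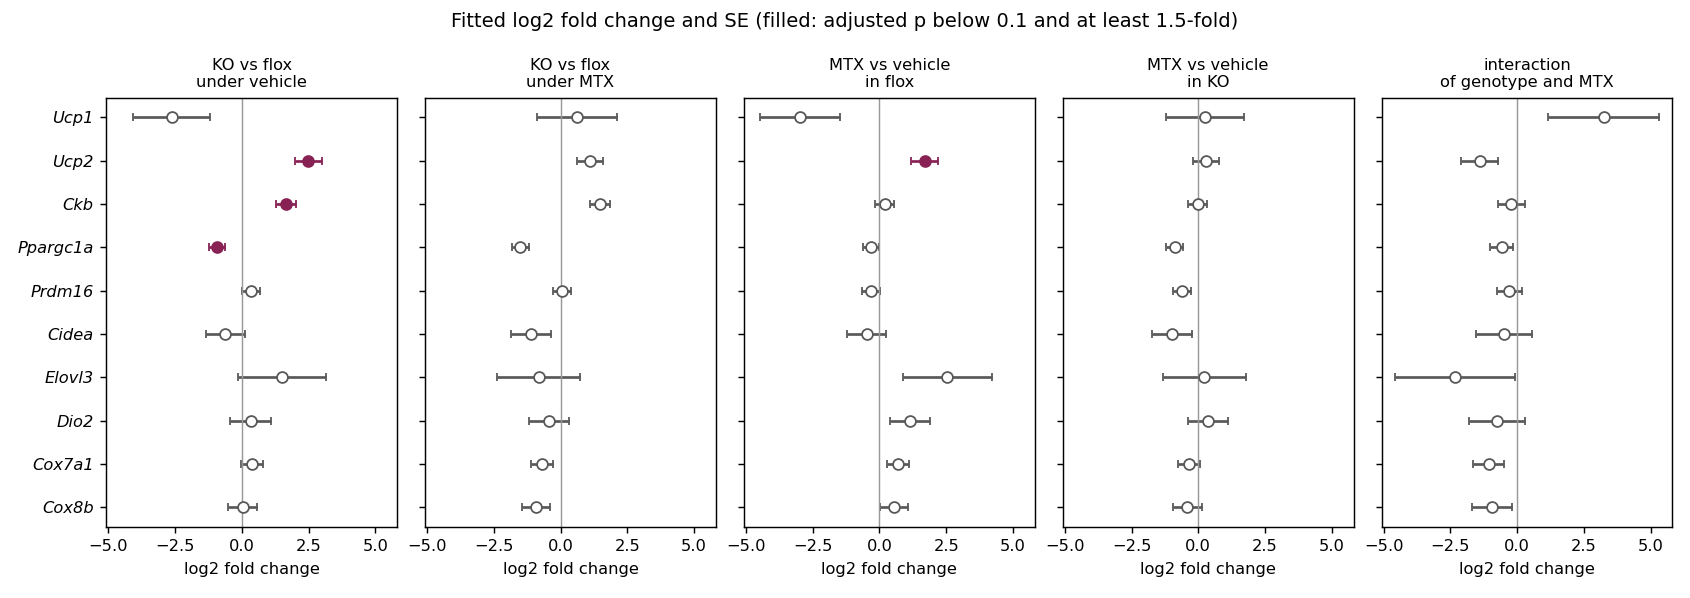
Fitted log2 fold change (horizontal axis) of each gene with its SE in the 4 comparisons and the interaction. Filled symbols passed the adjusted p and fold limits. Ucp2, Ckb and Ppargc1a are filled in KO against flox under vehicle and Ucp2 in MTX against vehicle in flox.

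The other genes of the thermogenic pathway moved in both directions. Of 114 genes on 6 lists 108 were tested, and 33 of them were called in KO against flox under vehicle, 15 higher and 18 lower. At 31.7% of all genes called, that share is near the background. In MTX against vehicle in flox mice 19 were called, 7 higher and 12 lower, which is 17.6% of the 108, against 24.2% of all genes. Under MTX the KO comparison, like MTX in KO mice and the interaction, gave no call on the lists by edgeR. At an unadjusted p below 0.05 there were 36 of the 108 in KO against flox under MTX (33.3%, all genes 24.5%), 13 for MTX in KO mice (12%, all genes 7.97%) and 9 in the interaction (8.33%, all genes 15%).

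**Figure D5:**
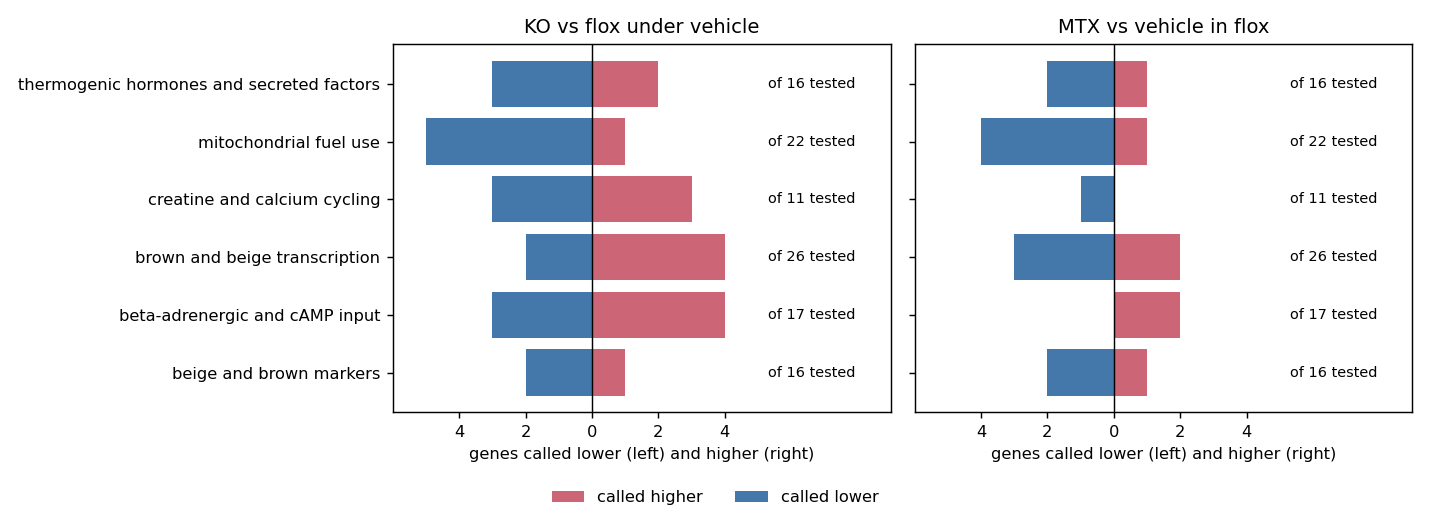
Number of genes called lower (left of 0) and higher (right of 0) on each of 6 pathway lists in KO against flox under vehicle and in MTX against vehicle in flox, with the number tested beside each bar. Calls run in both directions on every list in KO against flox.

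On the beta-adrenergic and cAMP list 4 of 17 genes were called higher in KO under vehicle and 3 lower, with a median of 0.07 against -0.06 for all genes. Adrb3, the receptor that dominates in adipocytes, fell from 151 to 727 CPM in flox to 35.7 to 140 CPM in KO (log2 fold change -2.49, SE 0.84, adjusted p = 0.0454). Pde3b, which degrades cAMP, fell by 1.11 on the log2 scale, and the cyclase Adcy6 by 1.06. The groups overlapped for Pde3b, at 133 CPM in flox vehicle replicate 3 and 137 CPM in KO vehicle replicate 1. The cyclase Adcy3 rose by 0.97 and the cAMP-responsive nuclear receptor Nr4a1 by 0.94. With MTX in flox mice 2 genes of the list were called higher, among them the phosphodiesterase Pde4b (log2 fold change 0.77), and none lower. Pde4b measured 13.9 CPM in flox vehicle replicate 4, above the 13.8 and 13.1 CPM of flox MTX replicates 1 and 4. Adipocyte and macrophage sums differed between the same groups, as given above, and their part in these changes was not tested.

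On the brown and beige transcription list 4 of 26 genes were called higher and 2 lower in KO under vehicle (median -0.15). The list also holds the cation channel Trpv4. Ppara, which drives fatty acid oxidation, fell by 1.45 on the log2 scale, and the corepressor Nrip1 by 1.19. Mecom rose by 0.98, Foxc2 by 0.97 and Cebpb by 0.65. In flox mice with MTX Irf4 (1.58) and Cebpb (0.71) rose, whereas Trpv4 (-1.56) and Zfp516 (-0.77) fell. Trpv4 measured 15.9 CPM in flox vehicle replicate 4, within the 9.13 to 16.5 CPM of the MTX libraries. Zfp516 overlapped too, with 23.4 CPM in flox vehicle replicate 4 and 25.4 CPM in flox MTX replicate 2. Hoxc10 was called lower too, at 1.30 to 5.40 CPM with vehicle and 0.99, 0.14 and 0.19 CPM in MTX replicates 1, 2 and 4. No fold is given for it because replicates 2 and 4 lie at the limit of 3 counts.

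The list of beige and brown markers had 1 gene called higher and 2 lower of 16 tested under vehicle (median 0.38). Mpzl2 measured 3.28 to 9.16 CPM in flox and 0.23 to 1.01 CPM in KO (log2 fold change -3.02, SE 0.59, adjusted p = 0.00483). Cited1 fell by 2.78 on the log2 scale, and Epsti1, also known as an interferon-induced gene, rose by 1.80. With MTX in flox mice Mpzl2 (-3.15) fell and Epsti1 (1.52) rose. Cited1 was called lower at 0.19, 0.05 and 0 CPM in replicates 1, 2 and 4.

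For creatine and calcium cycling 3 of 11 genes were called higher and 3 lower under vehicle (median -0.28). Slc6a8, the creatine importer, rose from 27.2 to 39.2 CPM in flox to 73.9 to 131 CPM in KO (log2 fold change 1.54, SE 0.37, adjusted p = 0.0103). Gatm, the first enzyme of creatine synthesis, rose by 1.18 on the log2 scale, while Gamt, the second, fell by 0.95. The groups overlapped for Gatm, at 17.5 CPM in flox vehicle replicate 4 and 16.8 CPM in KO vehicle replicate 1. The mitochondrial creatine kinase Ckmt1 fell by 2.61, the calcium channel Itpr1 by 0.71, and the calcium channel Ryr1, which the muscle list holds too, rose by 1.31. Ckmt1 (-3.03) was called lower with MTX in flox mice as well.

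Among genes of mitochondrial fuel use 1 of 22 was called higher and 5 lower under vehicle (median -0.31). Pank1, which makes coenzyme A, fell by 3.003 on the log2 scale, the glycerol kinase Gyk by 2.54 and the fatty acid transporter Slc27a2 by 2.21, whereas the thioesterase Acot11 rose by 1.62. With MTX in flox mice Gyk (-2.43) fell and Pdk4, which restrains pyruvate oxidation, rose (1.57). Fabp3 was called lower (-3.18), but on 1 library: it measured 26.5 CPM in flox vehicle replicate 4 and 0.91 and 1.69 in replicates 1 and 3, which lie within the 0.19 to 2.00 CPM of the MTX libraries. Slc27a2 was called lower too, at 5.40 to 8.93 CPM with vehicle and at or below 0.09 CPM with MTX, where no fold is given because these libraries lie under the limit of 3 counts. In flox vehicle the genes Mpzl2, Ckmt1, Pank1, Gyk and Slc27a2 were each highest in replicate 3, the library with the highest epididymis sum. The same was so for Trpv4 and Zfp516 of the transcription list. It was also so for Gamt (69.2, 143 and 87.4 CPM in replicates 1, 3 and 4) and Adcy6 (227, 234 and 183 CPM). Pank1 measured 21.7, 56.1 and 15.3 CPM in replicates 1, 3 and 4 beside epididymis sums of 5417, 14808 and 1783 CPM. The part of epididymis RNA in these calls was not tested.

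Of the hormones and secreted factors 2 of 16 were called higher and 3 lower under vehicle (median 0.22). Metrnl, a secreted factor made by fat and by macrophages, rose from 18.7 to 29.8 CPM in flox to 88.1 to 145 CPM in KO (log2 fold change 2.10, SE 0.41, adjusted p = 0.00472), and the interleukin 33 receptor Il1rl1 rose by 1.23. Il1rl1 measured 8.73 CPM in flox vehicle replicate 4 and 8.30 CPM in KO vehicle replicate 2, so its groups overlapped. Vegfa, the vascular growth factor, fell by 1.26 on the log2 scale, Bmp7 by 1.12 and the receptor Bmpr1a by 0.91. With MTX in flox mice Il33 rose (1.51) and Bmp7 fell (-1.36). Dio1 was called lower, at 0.39 to 1.43 CPM with vehicle and a count of 0 in all 3 MTX libraries.

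In the comparisons without a call, the list genes of lowest unadjusted p were Slc6a8 (1.60, adjusted p = 0.104), Hoxc9 (-1.13, adjusted p = 0.104) and Adcy3 (1.20, adjusted p = 0.104) for KO against flox under MTX. For MTX in KO mice they were Slc27a2 (adjusted p = 0.293), Bmp4 (-1.02, adjusted p = 0.303) and Hoxc9 (-0.997, adjusted p = 0.346). For the interaction they were Bmp4 (-1.39, adjusted p = 0.104), Pank1 (2.44, adjusted p = 0.124) and Mpzl2 (3.05, adjusted p = 0.142).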

How the data were processed

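Total RNA of eWAT was sequenced in 12 libraries, 3 per group. The methods name ribosomal RNA depletion and the labels polyA RNA, and which was used was not settled. The authors trimmed the reads (Trimmomatic 0.36), aligned them to mm10 (STAR 2.5.2b) and assigned them to Ensembl genes (featureCounts, Subread 1.5.2), tools and versions being from the submitters' processing notes. The deposited values are raw read counts per gene. The strand setting is not given in the sources used here, so reads of a gene and an antisense partner cannot be told apart.

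From the counts, R 4.3.3 with edgeR 4.0.16 was used: TMM, filterByExpr by group (18702 genes), 1 coefficient per group over all 12 libraries, the quasi-likelihood test of glmQLFit and glmQLFTest, adjusted over all genes tested. Symbols, coordinates and exon lengths came from GENCODE M21 (GRCm38). Marker sums are CPM of all counts. The alternatives tried were scaling to 12 core adipocyte genes, to library size or with RLE factors, the Wald test of DESeq2 1.42.0, no filter, a minimum of 10 counts per library, the replicate block, each comparison's own libraries, adjusted p below 0.05 without a fold limit, and each library left out. In a simulation of KO against flox under vehicle over 18702 genes, edgeR recovered 154 of 200 genes that had been changed 4-fold and made 19 false calls, and DESeq2 recovered 180 and made 84. Libraries of 1 group were checked for duplicates and differed beyond sampling noise in all 12 pairs (lowest ratio of chi-square to its degrees of freedom, 14.1).

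The 10 genes and all lists were chosen with earlier results of these data known. Named genes are the 10, on each pathway list up to 3 called genes per direction with the largest change (without calls, the 3 list genes of lowest unadjusted p), the 3 genes most correlated with each of the 10 (mean of at least 1 CPM), and the most abundant gene of each marker list quoted. A pathway list gene that this rule names is not reported here.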

Additional observations from a re-analysis of the deposited data

How the results depend on the processing

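The count of the 10 genes called in KO against flox under vehicle was 3, and stayed between 2 and 4 in each alternative. In KO against flox under MTX it was 0, and 2 without a filter, under a minimum of 10 counts per library and by DESeq2, and 0 to 3 with single libraries left out (3 without flox MTX replicate 2). In MTX against vehicle in flox mice it was 1, and 0 with scaling to adipocyte RNA, with the replicate block and with only the libraries of the comparison, and 0 to 2 with single libraries left out. The calls in MTX against vehicle in KO mice and in the interaction stayed at 0 in each alternative. Of 732 values of the 10 genes under alternatives, 665 kept direction and side of the threshold, 10 lost a call, 12 gained one and 45 changed sign. The causes were not tested.

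Under scaling to adipocyte RNA the all-gene median was 1.04 in KO against flox under MTX (TMM -0.05), -0.19 for MTX in flox (0.05), 0.44 for MTX in KO (-0.01) and 0.64 in the interaction (-0.05). It turned the sign of Dio2 (0.76), Elovl3 (0.35), Cox7a1 (0.46) and Cox8b (0.22) in KO against flox under MTX, of Ckb (0.45) for MTX in KO, and of Prdm16 (0.56), Ppargc1a (0.076) and Ckb (0.28) in the interaction. Relative to the all-gene median 7 of these 8 kept their side (in KO against flox under MTX Dio2 -0.27, Elovl3 -0.69, Cox7a1 -0.58 and Cox8b -0.81), and Ckb for MTX in KO was near it under both scalings (-0.011 and 0.017). As the scaling moves all genes by a similar amount, keeping a side is no separate check. These 8 are among the 45 sign changes.

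Residual correlations of the 12 same-number pairs had a median of 0.026 (-0.263 to 0.281), against 0.0013 (-0.378 to 0.454) in 42 other pairs. With 3 libraries per group this check cannot exclude that replicate numbers pair the samples. With the replicate block the count called in KO against flox under vehicle was 4, in MTX against vehicle in flox 0, and signs turned for Ucp1 (-0.065) and Elovl3 (0.74) in KO against flox under MTX, for Ucp1 (-1.18) and Ckb (0.0075) for MTX in KO, and for Ucp1 (-0.00024) in the interaction.

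With single libraries left out, signs turned for some genes, given here by the lowest and highest log2 fold change. In KO against flox under vehicle these were Ucp1 (-3.21 to 1.67), Cidea (-1.13 to 0.24), Dio2 (-0.14 to 1.11) and Cox8b (-0.25 to 0.55). In KO against flox under MTX they were Ucp1 (-0.47 to 1.66), Dio2 (-0.92 to 0.28), Prdm16 (-0.16 to 0.51) and Elovl3 (-1.39 to 5.29). For MTX in flox they were Ucp1 (-4.02 to 1.31), Cidea (-0.93 to 0.37), Elovl3 (-3.55 to 5.26), Cox8b (-0.065 to 1.06) and Ckb (-0.13 to 0.41). For MTX in KO they were Ucp1 (-0.84 to 0.66), Dio2 (-0.057 to 0.63), Elovl3 (-0.12 to 0.57) and Ckb (-0.30 to 0.46). In the interaction they were Ucp1 (-1.06 to 4.26), Cidea (-1.36 to 0.012), Prdm16 (-0.52 to 0.13), Elovl3 (-5.04 to 3.76) and Ckb (-0.50 to 0.26).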
